A study of Mus musculus with 18 samples.

Results

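*Atf4* and 9 genes that act with it in the cellular response to stress were followed in mouse embryonic stem cells (mESCs). The 10 genes, *Atf4*, *Atf3*, *Atf5*, *Ddit3*, *Nupr1*, *Trib3*, *Chac1*, *Sesn2*, *Ddit4* and *Cebpb*, were chosen by name from the 24369 genes of the deposited TPM table, with no threshold on any measured value. All 10 passed the filter on low counts in both fits. *Atf4* lies at chr15:80255184-80257545 (GRCm38.p6) and the other members are spread over chromosomes 1, 2, 4, 7 and 10, with *Trib3*, *Chac1* and *Cebpb* on chromosome 2. RNA-seq was available for 12 libraries of unsorted cells of the genotype Rex1GFPd2-Cas9 at day 0, day 1, day 2 and day 3 of differentiation (3 libraries per day) and for 6 libraries of sorted Rex1GFP+ cells. The sorted cells were wild-type for the genes of interest (Rex1GFPd2-Cas9), Rex1GFPd2-Cas9 Nprl2-/- (*Nprl2* KO) or Rex1GFPd2-Cas9 Tsc2-/- (*Tsc2* KO), with 2 libraries each. All 18 libraries came from the E14 line and carry both the destabilized GFP reporter at *Rex1* (*Zfp42*), a gene of naive pluripotency, and a Cas9 transgene, so every comparison is between cells that express Cas9. The KO lines were picked as clones after a pair of gRNAs had removed an exon, and the labels do not say how many clones, or which, gave the libraries. In the study, stem cells in serum and LIF are grown on feeder fibroblasts, while culture with inhibitors and LIF (2iL) and differentiation are on gelatin, and the labels do not give the medium of each library. No source used here says whether replicates were separate cultures, so p-values measure the spread between these libraries, which may be technical. In bulk RNA, a change in the share of cells that express a gene cannot be told apart from a change per cell.

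Atf4 is a bZIP transcription factor of the integrated stress response. Kinases that sense amino acid shortage, unfolded protein, haem shortage or viral RNA phosphorylate the translation factor eIF2α, which lowers protein synthesis in general while raising translation of the *Atf4* mRNA, and the kinase complex mTORC1 also raises Atf4 protein. Atf4 then activates genes for amino acid uptake, amino acid synthesis and tRNA charging, together with further regulators such as *Ddit3* (CHOP), *Atf3*, *Trib3*, *Chac1*, *Sesn2* and *Ddit4*. Nprl2 is a subunit of GATOR1, which restrains mTORC1 when amino acids are short, and Tsc2 restrains mTORC1 downstream of growth factors. The sorted libraries let the 10 genes be compared between cells that lack either brake, and the time course gives their levels as mESCs leave naive pluripotency. Atf4 is controlled to a large degree at translation, which RNA-seq does not measure.

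The promoters were read first, since the members include both the factor and genes it is known to bind. RefSeq promoter windows (GRCm38.p6, 250 bases before to 50 after the start of transcription) were found for all 10 genes, 11 windows in all, and were searched on both strands. The C/EBP-ATF response element (CARE), at which Atf4 binds with a C/EBP partner, was searched as TGATGNAA, whose reverse complement is TTNCATCA. It occurred in 4 of the 10 genes, *Atf3*, *Nupr1*, *Trib3* and *Chac1*, and in 3.97% of 32851 windows over all genes. In each of the 4 the match lay in the reverse direction. The stretches around these matches are shown because the 4 genes include those with the widest range of levels below. They are written 5′ to 3′ on the strand of the gene, with the match in capitals.
*Atf3*, chr1:191183411-191183468, minus strand: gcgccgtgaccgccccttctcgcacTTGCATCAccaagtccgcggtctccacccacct
*Nupr1*, chr7:126625548-126625605, minus strand: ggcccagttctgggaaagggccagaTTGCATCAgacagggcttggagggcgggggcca
*Chac1*, chr2:119351024-119351081, plus strand: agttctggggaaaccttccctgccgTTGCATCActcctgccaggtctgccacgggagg
*Trib3*, chr2:152344028-152344057, minus strand: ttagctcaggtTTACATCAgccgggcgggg
The same 8 bases, TTGCATCA, stood in *Atf3*, *Nupr1* and *Chac1*. The match began 110 bases before the start site in both *Atf3* and *Nupr1* and 193 bases before it in *Chac1*, and that of *Trib3* lay past the start site, from base 15 to base 22, inside the transcript. The cAMP response element TGACGTCA (1.79% of windows) and the ER stress element ERSE (0.119% of windows) matched none of the 10 genes. The core of the hypoxia response element was searched only in its form ACGTG, and the form GCGTG was not searched. ACGTG matched *Ddit3*, *Nupr1* and *Ddit4* and 19.6% of all windows. A match is a description of these letters only, and the absence of one says nothing of sites outside the window.

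Levels were compared between genes in TPM, which corrects for transcript length. *Atf4* had the highest TPM of the 10 genes in all 7 groups, at 397 ± 40.5 TPM (SD, n = 3) on day 0 and 188 ± 3.4 TPM (SD, n = 2) in wild-type GFP+ cells, above 98.6% and 96.7% of the genes of the table. *Sesn2*, which encodes a leucine-binding protein that holds mTORC1 in check through GATOR2, followed in the GFP+ groups with 106 ± 11.2 TPM (SD, n = 2) in wild-type cells. *Atf3*, a stress-inducible bZIP factor, was last in all groups other than day 3, with 0.869 ± 0.0868 TPM (SD, n = 2) in wild-type GFP+ cells and 19.1 ± 8.21 TPM (SD, n = 3) on day 3, where *Nupr1* was last. Neighbours in this order often could not be separated: on day 0 the libraries of *Nupr1* and *Sesn2*, of *Trib3* and *Ddit4*, of *Ddit4* and *Ddit3*, and of *Ddit3* and *Chac1* overlapped. On day 0 *Nupr1*, a small chromatin protein induced by many stresses, stood second at 111 ± 38.9 TPM (SD, n = 3), and on day 1 it was seventh at 3.95 ± 0.993 TPM (SD, n = 3). *Ddit4*, whose product inhibits mTORC1 through the Tsc1/2 complex, moved the other way, from sixth on day 0 at 35.5 ± 17 TPM to second on day 2 at 201 ± 38 TPM (SD, n = 3 each).

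In the comparisons, levels are CPM, estimated counts scaled to TMM-normalized library sizes, a change is a log2 fold change with its SE from edgeR, and a gene is called when its adjusted p is under 0.05. The 6 sorted libraries held 8610357 to 13780861 estimated counts and the 12 time-course libraries 12503005 to 15305054, so that 3 counts are 0.199 to 0.359 CPM. As a check of the labels, *Nprl2* lay at 5.96 to 6.5 CPM in *Nprl2* KO against 11.7 to 12.6 CPM in wild-type libraries, *Tsc2* at 63.7 to 67.3 CPM in *Tsc2* KO against 152.3 to 155.5 CPM, and *Zfp42* fell from 670.9 to 752.8 CPM on day 0 to 9.64 to 12.8 CPM on day 3. The 8 mES cell markers, among them *Pou5f1* at 674.5 CPM or more in every library, summed to 3987 and 4136 CPM in wild-type, 3434 and 3730 CPM in *Nprl2* KO and 5026 and 5283 CPM in *Tsc2* KO libraries. The 10 feeder fibroblast markers summed to 328.2 to 472.1 CPM in wild-type and *Nprl2* KO cells and in *Tsc2* KO library 1, but to 99.2 CPM in *Tsc2* KO library 2 and to 23.3 to 135.9 CPM in the time course. The sums of day 3 came mostly from *Acta2*, at 48.8 to 88.5 CPM, and *Thy1*, at 22 to 28.3 CPM. *Col1a1* was at 7.71 to 16.9 CPM on day 0 and 2.53 to 3.05 CPM on day 3, so these sums do not measure feeder cells alone. *Col1a1* was detected in every library. *Lum* was at 0 in every library of days 0, 2 and 3, and in the sorted cells its highest value was 0.182 CPM. The 8 endoderm markers summed to 25.9 CPM or less in every library. The part of feeder cells and of the difference in mES cell markers in the results below was not tested, and counts without *Tsc2* KO library 2 are given beside the main ones.

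**Figure D1:**
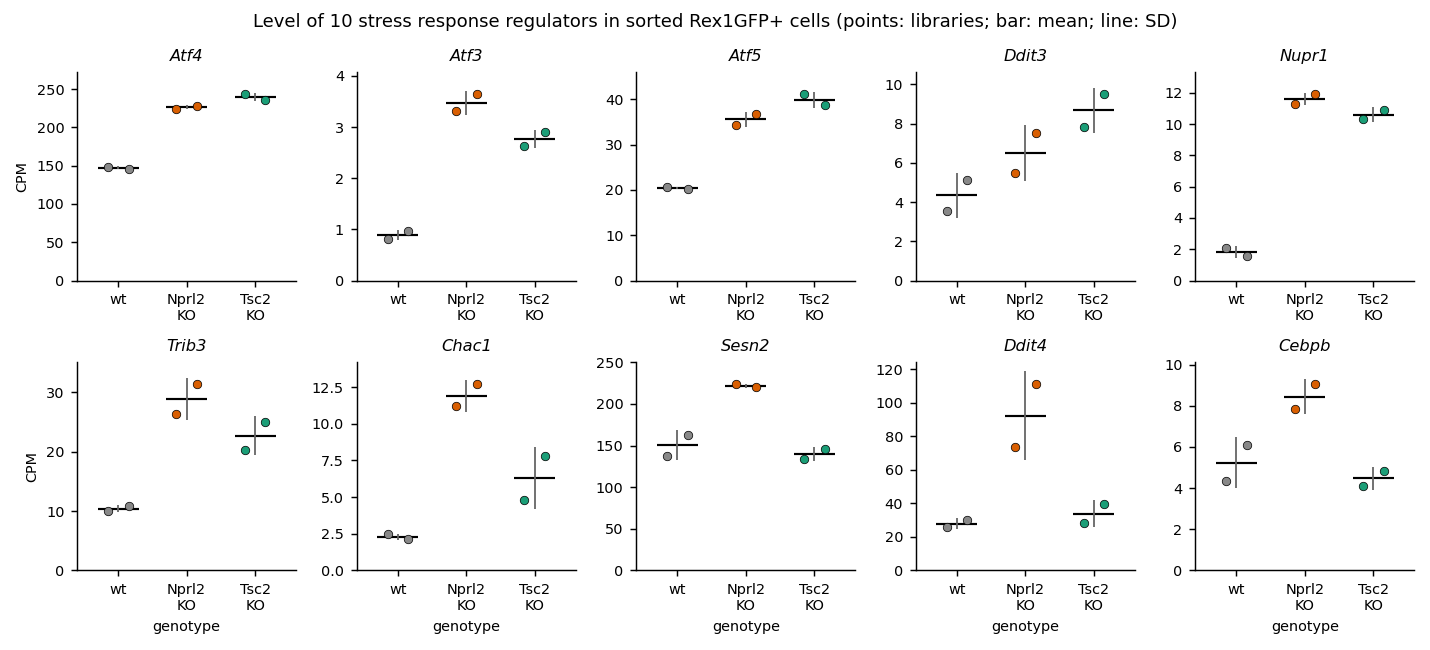
CPM (y axis, from 0) of each of the 10 genes in sorted Rex1GFP+ wild-type, *Nprl2* KO and *Tsc2* KO cells (x axis). Points are the 2 libraries of a group, the bar is their mean and the line their SD. For *Atf4* the KO libraries lie between 224.6 and 243.1 CPM, all above the wild-type libraries at 145.6 and 148.3 CPM, while for *Ddit4* only the *Nprl2* KO libraries, at 73.7 and 111.2 CPM, lie apart.

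In *Nprl2* KO cells 8 of the 10 genes rose against wild-type and none was called lower, where 6.43% of the 13725 genes tested were called in either direction, 2.78% higher and 3.66% lower. *Nupr1*, *Chac1*, *Atf3* and *Ddit4* had the largest log2 fold changes, from 1.74 to 2.64, and *Atf4* itself rose 1.54-fold. The median log2 fold change of the 10 genes was 1.14, against 0.001 over all genes tested. The *Nprl2* KO libraries lay above the wild-type libraries for all 10 genes, where the libraries of 51.0% of all genes tested did not overlap. The 10 genes comprise the factor itself, other transcriptional regulators, and genes whose products act in the cytoplasm, and are given in that order.

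*Atf4* had 148.3 and 145.6 CPM in wild-type cells and 224.6 and 228.3 CPM in *Nprl2* KO cells, a log2 fold change of 0.62 ± 0.06 (SE, edgeR adjusted p = 1.5e-04). The KO libraries lay close together and well above both wild-type libraries. *Atf5*, a bZIP relative of *Atf4* that is likewise translated under stress, was measured at 20.6 and 20.3 CPM in wild-type and 34.4 and 36.8 CPM in *Nprl2* KO cells, a rise of 0.80 ± 0.11 on the log2 scale (edgeR adjusted p = 0.00125). Most of its estimate was for a transcript listed as non-coding, as given below with the transcripts of *Atf4*. *Atf5* overlaps *Nup62* and *Il4i1b* in the annotation, so reads of the shared parts may have been divided between them. *Atf3* was scarce, with 9 and 8 estimated counts in wild-type (0.817 and 0.959 CPM) against 35 and 47 in the *Nprl2* KO libraries (3.31 and 3.64 CPM). Its log2 fold change was 1.97 ± 0.35 (SE, edgeR adjusted p = 0.00627), and without wild-type library 1 the adjusted p was 0.054.

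*Nupr1* lay at 2.09 and 1.56 CPM in wild-type and at 11.3 and 11.9 CPM in *Nprl2* KO libraries, the widest gap of the 10 genes, with a fold of 6.25 (edgeR adjusted p = 5.6e-05). *Ddit3*, the proapoptotic C/EBP relative CHOP, stood at 3.54 and 5.15 CPM in wild-type and 5.49 and 7.51 CPM in *Nprl2* KO libraries, and its log2 fold change of 0.61 ± 0.26 was not called (edgeR adjusted p = 0.191). The libraries did not overlap, but the gap between the nearest ones was smaller than the spread within either group. *Cebpb*, a C/EBP factor that can pair with Atf4, had 4.36 and 6.11 CPM in wild-type, 7.85 and 9.05 CPM in *Nprl2* KO libraries and a log2 fold change of 0.71 ± 0.23 that was not called (edgeR adjusted p = 0.0908). *Ddit3* shares bases with *Mbd6* and *Mars1*, and its reads carry the same uncertainty as those of *Atf5*.

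*Trib3*, a pseudokinase that feeds back on Atf4, was at 9.99 and 10.8 CPM in wild-type and 26.4 and 31.4 CPM in *Nprl2* KO libraries, 2.79-fold higher (edgeR adjusted p = 2.0e-04). *Chac1*, which degrades glutathione, was at 2.45 and 2.16 CPM in wild-type and 11.2 and 12.7 CPM in *Nprl2* KO libraries, 5.13-fold higher (edgeR adjusted p = 3.8e-04). For both genes the spread within a group was small beside the gap. The remaining genes encode inhibitors of mTORC1. *Sesn2* rose from 137.8 and 163 CPM to 223.7 and 220.2 CPM, with a log2 fold change of 0.56 ± 0.08 (SE, edgeR adjusted p = 0.00221). *Ddit4* went from 25.7 and 30.1 CPM to 73.7 and 111.2 CPM, with a log2 fold change of 1.74 ± 0.28 (SE, edgeR adjusted p = 0.03), the widest spread among KO libraries. Its edgeR call was lost without wild-type library 1 (adjusted p = 0.231) and without wild-type library 2 (adjusted p = 0.17). Leaving out 1 library at a time, 6 to 8 members were called.

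In *Tsc2* KO cells 7 of the 10 genes rose against the same wild-type libraries and none was called lower. The background here was far higher, with 29.1% of genes called in either direction, 14.9% higher and 14.2% lower. The median log2 fold change of the 10 genes was 0.99, against 0.005 over all genes tested. The 7 genes were *Atf4*, *Atf3*, *Atf5*, *Ddit3*, *Nupr1*, *Trib3* and *Chac1*, the same 7 whose libraries did not overlap (65.9% of all genes tested did not), and *Sesn2*, *Ddit4* and *Cebpb* were not called. Because the comparisons of both KO lines share their wild-type libraries, their values are given side by side and no agreement between them is read as a result. Without *Tsc2* KO library 2, which held fewer feeder markers, 6 genes were called, and *Ddit3* was the one lost.

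*Atf4* was at 243.1 and 236 CPM in the *Tsc2* KO libraries, 1.63-fold above wild-type (log2 fold change 0.70 ± 0.06, SE, edgeR adjusted p = 9.2e-06). *Atf5* was at 41.1 and 38.7 CPM, 1.95-fold above wild-type (edgeR adjusted p = 4.8e-05), and *Nupr1* at 10.3 and 10.9 CPM, 5.69-fold above wild-type (edgeR adjusted p = 1.0e-05). For each of these 3 genes the *Tsc2* KO libraries lay close together and apart from wild-type. *Trib3* at 20.3 and 25 CPM and *Chac1* at 4.81 and 7.82 CPM had log2 fold changes of 1.13 ± 0.16 and 1.45 ± 0.29 (SE, edgeR adjusted p = 2.3e-04 and 0.00261). *Ddit3* at 7.85 and 9.49 CPM rose by 1.02 ± 0.25 on the log2 scale (edgeR adjusted p = 0.0089), a call that was lost without wild-type library 1 (adjusted p = 0.0989) or without *Tsc2* KO library 2 (adjusted p = 0.0785). *Atf3* at 2.64 and 2.9 CPM rose by 1.64 ± 0.35 (SE, edgeR adjusted p = 0.00443). It lies on chromosome 1, and over the 747 genes tested there the median of this comparison was 0.37 on the log2 scale.

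The 3 genes not called in *Tsc2* KO cells overlapped with wild-type in their libraries. *Sesn2* was at 133.5 and 146.1 CPM in *Tsc2* KO cells, a log2 fold change of -0.10 with a 95% interval from -0.27 to 0.06 (edgeR adjusted p = 0.393). *Ddit4* was at 28 and 39.6 CPM, a log2 fold change of 0.28 with an interval from -0.27 to 0.84 (edgeR adjusted p = 0.521), so the interval includes increases of up to 0.84 on the log2 scale. *Cebpb* was at 4.08 and 4.85 CPM, with -0.21 and an interval from -0.68 to 0.27 (edgeR adjusted p = 0.564).

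Set against each other directly, the KO lines differed in 4 of the 10 genes, all lower in *Tsc2* KO than in *Nprl2* KO cells, where 34.2% of genes were called in either direction, 17.5% higher and 16.6% lower (2408 of 4692 calls were higher, against 2669 of 4325 with limma on log2(TPM + 1)). *Ddit4* differed most, 2.74-fold (log2 fold change -1.45 ± 0.26, SE, edgeR adjusted p = 0.0116). *Sesn2* differed 1.59-fold (-0.67 ± 0.08, edgeR adjusted p = 7.9e-05), *Cebpb* 1.89-fold (-0.92 ± 0.22, edgeR adjusted p = 0.00724) and *Chac1* 1.88-fold (-0.91 ± 0.22, edgeR adjusted p = 0.00776). The edgeR calls of *Cebpb* and *Chac1* were lost without *Nprl2* KO library 2 (adjusted p = 0.0654 and 0.0679) or without *Tsc2* KO library 1 (adjusted p = 0.0539 and 0.0713), which left *Sesn2* and *Ddit4* as the 2 genes called under either omission. *Sesn2* and *Ddit4* both encode inhibitors of mTORC1 signalling. *Atf4* differed by 0.08 on the log2 scale, with an interval from -0.04 to 0.20 (edgeR adjusted p = 0.338), and *Nupr1* by -0.14, from -0.46 to 0.19 (edgeR adjusted p = 0.578). *Trib3* differed by -0.35, from -0.62 to -0.08, and was not called (edgeR adjusted p = 0.0687). The libraries of the KO lines did not overlap for any of the 10 genes, as was so for 68.1% of all genes tested.

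**Figure D2:**
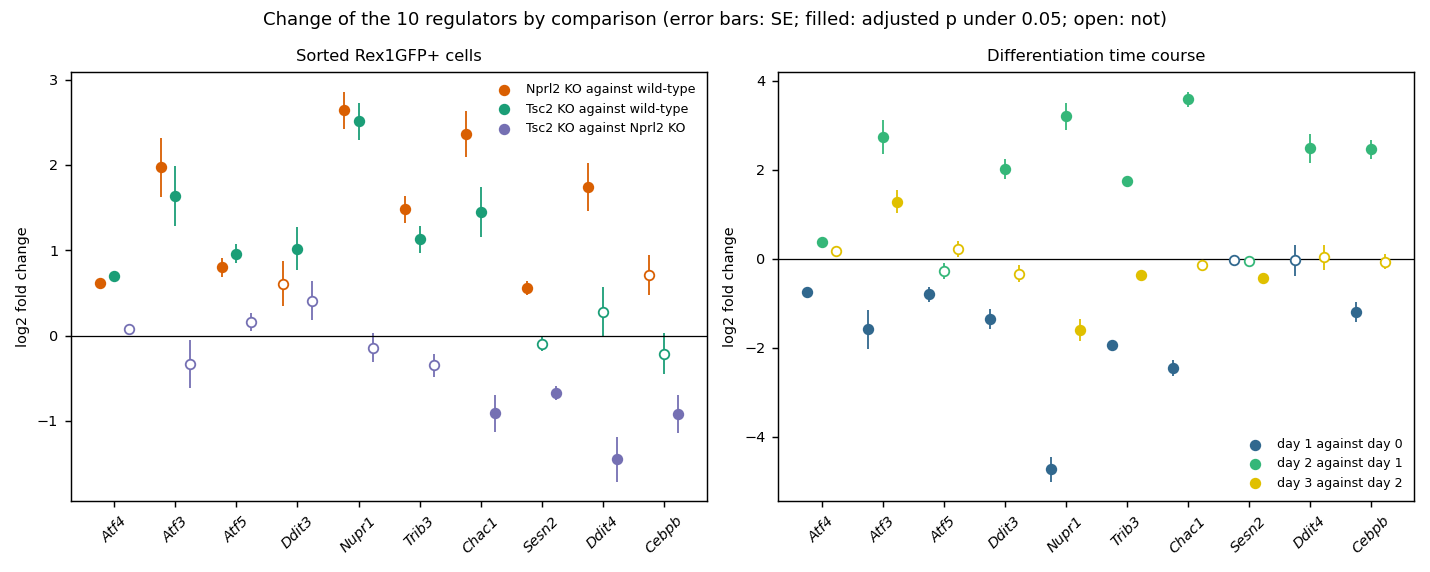
Log2 fold change (y axis) of the 10 genes (x axis) in the 3 comparisons of sorted cells (left) and in the 3 steps between successive days (right). Error bars are SE, and open points had an adjusted p of 0.05 or more. *Sesn2*, *Ddit4* and *Cebpb* are filled for *Tsc2* KO against *Nprl2* KO and open for *Tsc2* KO against wild-type, and *Nupr1* has the lowest point of the days at -4.73.

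Over differentiation most of the genes first fell and then rose. From day 0 to day 1, 8 of the 10 fell and none was called higher, where 60.9% of the 14382 genes tested were called in either direction, 30.1% higher and 30.8% lower. From day 1 to day 2, 8 of the 10 rose and none was called lower, where 62.1% of genes were called, 32.5% higher and 29.6% lower. The split by direction in that step depended on the scaling: edgeR called 4677 of 8931 genes higher, and limma on log2(TPM + 1) 5639 of 8842. The median log2 fold change of the 10 genes was -1.28 for the former step and 2.24 for the latter, against 0.001 and 0.02 over all genes tested. The 7 genes called in both steps were *Atf4*, *Atf3*, *Ddit3*, *Nupr1*, *Trib3*, *Chac1* and *Cebpb*, and since both steps share the day 1 libraries, a low day 1 enters each. The libraries of 8 genes did not overlap from day 0 to day 1, against 67.8% of all genes tested, and those of 8 genes from day 1 to day 2, against 68.3%, with *Ddit4* overlapping in the former step, *Atf5* in the latter and *Sesn2* in both. Pluripotency markers moved in the same period: the 8 mES cell markers, which include general as well as naive pluripotency genes, summed to 5561 to 5813 CPM on day 0, 2949 to 2998 CPM on day 1 and 1440 to 1637 CPM on day 2. Single markers differed, with *Utf1* at 217.7 to 250.9 CPM on day 0 and 518.2 to 548.5 CPM on day 1, and their part in these changes was not tested.

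**Figure D3:**
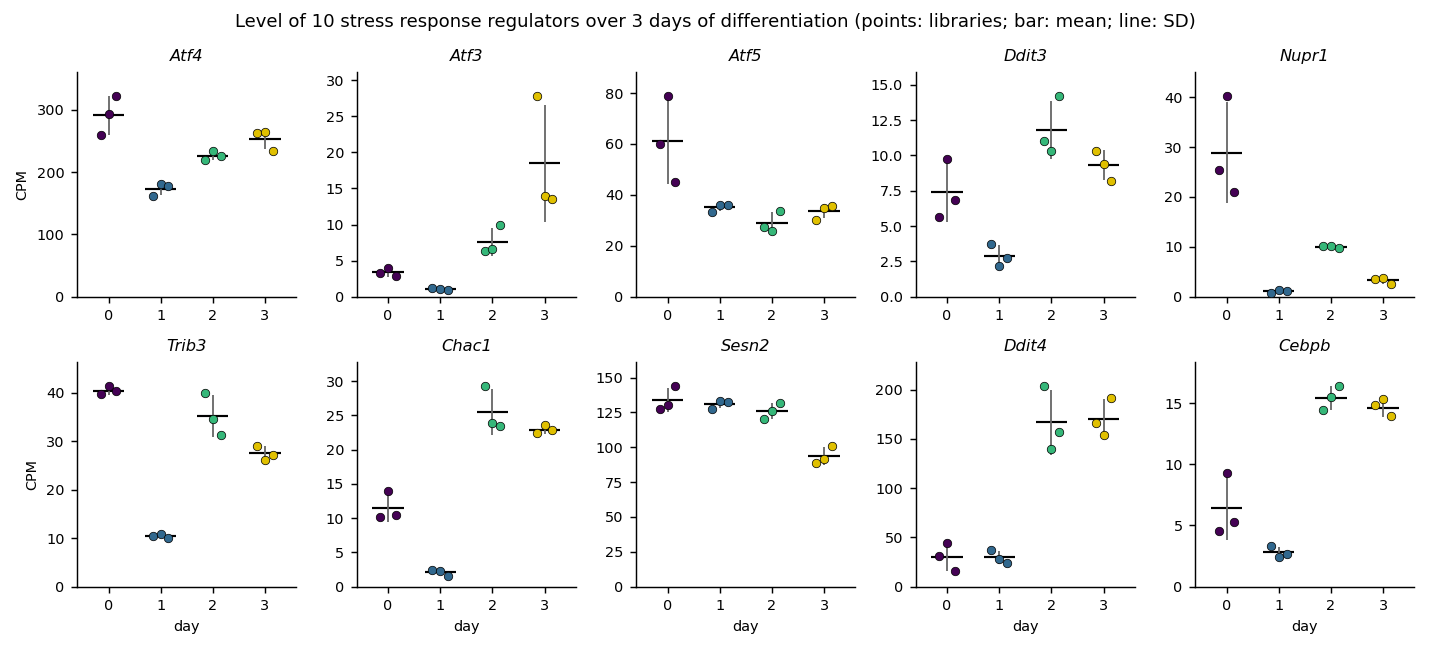
CPM (y axis, from 0) of each of the 10 genes on days 0 to 3 of differentiation (x axis). Points are the 3 libraries of a day, the bar is their mean and the line their SD. *Nupr1* is highest on day 0 and lowest on day 1 at 0.819 to 1.37 CPM, *Ddit4* is high on days 2 and 3 at 139.6 CPM or more, and *Sesn2* is lowest on day 3 at 88.5 to 101 CPM.

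*Atf4* was at 258.9, 293 and 322 CPM on day 0, 161.2, 181.2 and 177.6 CPM on day 1, 219.6, 233.5 and 225.1 CPM on day 2 and 262.4, 263.6 and 234.6 CPM on day 3. It was lowest on day 1 in all 3 libraries, with a log2 fold change of -0.75 ± 0.07 to day 1 (edgeR adjusted p = 5.3e-08) and of 0.38 ± 0.07 from day 1 to day 2 (edgeR adjusted p = 1.8e-04). Its span over the days was narrow, with 1.76-fold between the highest and the lowest mean TPM. *Nupr1* was at 25.4, 40.2 and 21 CPM on day 0, 0.819, 1.37 and 1.06 CPM on day 1, 10.2, 10.1 and 9.81 CPM on day 2 and 3.6, 3.76 and 2.48 CPM on day 3. No 2 days overlapped. It fell by 4.73 on the log2 scale to day 1 (SE 0.28, edgeR adjusted p = 5.2e-10), rose by 3.20 ± 0.31 to day 2 (edgeR adjusted p = 2.4e-07) and was lower again on day 3 by -1.60 ± 0.25 (edgeR adjusted p = 2.2e-04). The day means of *Nupr1* TPM spanned 28-fold, the widest span of the 10 genes.

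*Chac1* was at 10.2, 13.9 and 10.5 CPM on day 0, 2.46, 2.28 and 1.55 CPM on day 1, 29.3, 23.9 and 23.4 CPM on day 2 and 22.4, 23.6 and 22.8 CPM on day 3. It rose 12.1-fold from day 1 to day 2, the largest rise of the 10 genes in that step (edgeR adjusted p = 3.0e-12), and unlike *Nupr1* it ended above its day 0 level, by 0.98 ± 0.13 on the log2 scale (edgeR adjusted p = 1.7e-06). *Trib3* was tight among libraries, at 39.7, 41.4 and 40.3 CPM on day 0, 10.5, 10.8 and 10 CPM on day 1, 39.9, 34.6 and 31.2 CPM on day 2 and 29.1, 26.2 and 27.1 CPM on day 3. It fell 3.87-fold to day 1 (edgeR adjusted p = 3.2e-12) and rose 3.37-fold to day 2 (edgeR adjusted p = 3.1e-11). *Ddit3* was at 5.65 to 9.74 CPM on day 0, 2.2 to 3.72 CPM on day 1, 10.3 to 14.2 CPM on day 2 and 8.21 to 10.3 CPM on day 3. Both of its steps to and from day 1 were called, at -1.36 ± 0.23 and 2.02 ± 0.22 on the log2 scale (edgeR adjusted p = 4.9e-05 and 2.9e-07), and its day 3 and day 0 libraries overlapped (edgeR adjusted p = 0.152).

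*Atf3* was at 3.35, 4.04 and 2.83 CPM on day 0, 1.27, 1.14 and 0.979 CPM on day 1, 6.4, 6.61 and 9.89 CPM on day 2 and 27.8, 13.9 and 13.6 CPM on day 3. It was the only gene of the 10 called higher on day 3 than on day 2, by 1.28 ± 0.26 on the log2 scale (edgeR adjusted p = 0.00271), and day 3 library 1 stood apart from the other day 3 libraries. *Atf3* is also an immediate-early gene, one of those induced within minutes of a stimulus, and the 12 other immediate-early genes summed to 924.1 CPM in day 3 library 1 against 623.7 and 484.4 CPM in the other day 3 libraries and 377.4 to 522.5 CPM on day 2. The part of these genes was not tested, and without day 3 library 1 the *Atf3* change from day 2 to day 3 was 0.86 on the log2 scale (edgeR adjusted p = 0.00272). *Cebpb* had 4.58 to 9.28 CPM on day 0, 2.43 to 3.28 CPM on day 1, 14.4 to 16.4 CPM on day 2 and 13.9 to 15.3 CPM on day 3. It rose 5.48-fold from day 1 to day 2 (edgeR adjusted p = 1.4e-08). Its change from day 2 to day 3 was -0.07 on the log2 scale, with a 95% interval from -0.41 to 0.26 (edgeR adjusted p = 0.775).

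*Ddit4* was among the 2 genes not called from day 0 to day 1. It was at 31, 44.3 and 15.5 CPM on day 0 and 37.2, 28.3 and 24.1 CPM on day 1, a log2 fold change of -0.03 with a 95% interval from -0.72 to 0.66 (edgeR adjusted p = 0.948), so the interval includes changes in either direction. It then rose to 203.7, 139.6 and 157.2 CPM on day 2, 5.57-fold (edgeR adjusted p = 1.9e-04), and was at 165.9, 154.1 and 191.8 CPM on day 3. Days 2 and 3 lay far above every library of days 0 and 1. *Sesn2* changed least, with 127.6 to 144 CPM on day 0, 127.5 to 133.1 CPM on day 1, 120.6 to 131.7 CPM on day 2 and 88.5 to 101 CPM on day 3, and fell by 0.43 on the log2 scale from day 2 to day 3 (SE 0.06, edgeR adjusted p = 8.7e-05). *Atf5* fell from 45 to 78.8 CPM on day 0 to 33.4 to 36.2 CPM on day 1, by 0.80 on the log2 scale (SE 0.17, edgeR adjusted p = 0.00151), and was at 26 to 33.8 CPM on day 2, a step that was not called (edgeR adjusted p = 0.2).

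From day 2 to day 3 the genes changed less. *Atf3* was called higher and *Nupr1*, *Sesn2* and *Trib3* lower, 4 of 10 genes where 31.5% of all genes were called, 15.9% higher and 15.6% lower. The libraries of 6 genes did not overlap, as for 43.3% of all genes, and the median log2 fold change of the 10 was -0.11. Between day 0 and day 3, 9 of the 10 were called, 4 higher and 5 lower, where 70.9% of genes were called and 35.9% were called lower. The libraries of 8 genes did not overlap, as for 73.5% of all genes. *Atf3*, *Ddit4*, *Cebpb* and *Chac1* were higher on day 3, by 0.98 to 2.48 on the log2 scale, and *Nupr1*, *Atf5*, *Trib3*, *Sesn2* and *Atf4* were lower. For *Atf4* the day 3 change of -0.20 ± 0.07 (edgeR adjusted p = 0.0195) stood beside overlapping libraries, and its call was lost with upper-quartile scaling (adjusted p = 0.0532), with only these days in the fit (adjusted p = 0.0539), with limma (adjusted p = 0.189) and without day 0 library 3 (adjusted p = 0.125) or day 3 library 3 (adjusted p = 0.112).

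The sorted wild-type cells and the unsorted cells of the time course were set side by side in TPM, with no test, because they were normalized separately and the library kit of the time course is not given in the sources used here. *Nupr1* was at 6.92 TPM in wild-type GFP+ cells, 45.7 TPM in *Nprl2* KO and 41.9 TPM in *Tsc2* KO cells (means, n = 2), against 111 TPM on day 0 and 3.95 TPM on day 1 (means, n = 3). *Trib3* was at 9.79, 26.7 and 21.96 TPM in the same sorted groups and at 38.1 and 9.35 TPM on days 0 and 1. *Chac1* was at 2.90, 14.7 and 8.17 TPM in the sorted groups and at 14.5 and 2.50 TPM on days 0 and 1. For *Nupr1* and *Trib3* the wild-type GFP+ mean was thus nearer to day 1 and the KO means lay between days 1 and 0, while the *Chac1* mean of *Nprl2* KO cells was at the day 0 level. *Ddit4* was at 32.6, 106 and 40.7 TPM in the sorted groups, and both days 0 and 1, at 35.5 and 33.2 TPM, lay near the wild-type level. The other members were placed in several ways. Wild-type GFP+ means of *Atf4* (188 TPM), *Atf5* (21.9 TPM) and *Atf3* (0.869 TPM) lay below both days, the lower being day 1 at 226, 35.8 and 1.05 TPM. *Ddit3* at 10.7 TPM was nearer to day 1 (7.17 TPM) than to day 0 (18.6 TPM). *Cebpb* at 6.88 TPM was nearer to day 0 (8.39 TPM) than to day 1 (3.51 TPM). *Sesn2* at 106 TPM lay above days 0 and 1, at 94.5 and 88 TPM. The next values are in CPM, which was scaled separately in each set. Wild-type GFP+ cells were not at the day 1 level of the naive marker *Zfp42*, with 543.3 to 553.3 CPM against 142.5 to 170.4 CPM. Against day 0, their *Klf4* was at 41.9 to 47.9 against 299.8 to 338.1 CPM and *Pou5f1* at 1107 to 1178 against 1141 to 1261 CPM. The 10 feeder markers summed to 328.2 and 472.1 against 23.3 to 44.1 CPM on day 0. The part of these differences in the placement beside days 0 and 1 was not tested.

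*Atf4* is annotated with 2 transcripts, and the estimated division between them differed between the sets of libraries. The longer one, of 1746 bases against 1463, took 1.29% to 3.09% of *Atf4* TPM in the day means and 32.5% (wild-type), 40.8% (*Nprl2* KO) and 36.1% (*Tsc2* KO) in the means of sorted cells. Among the sorted libraries it ranged from 30% to 34.9% in wild-type, from 36.4% to 45.2% in *Nprl2* KO and from 34% to 38.1% in *Tsc2* KO, so wild-type and *Nprl2* KO libraries did not overlap while *Tsc2* KO libraries overlapped with both. *Atf5* also has 2 transcripts, and the one that RefSeq lists as non-coding took 84.9% to 94.3% of *Atf5* TPM in the group means. The coding one had means of 3.32 TPM in wild-type, 4.62 TPM in *Nprl2* KO and 6.05 TPM in *Tsc2* KO cells. Its day means were 2.1 to 5.19 TPM. For both genes only the sum over the transcripts was tested above.

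The genes downstream of Atf4 were followed with a list of 35 known targets, mostly genes for amino acid uptake, amino acid synthesis, one-carbon metabolism and tRNA charging, none of them among the 10. In *Nprl2* KO cells 26 of the 34 tested were called higher and 1, *Wars*, lower, with a median log2 fold change of 0.55. The largest were *Vldlr*, a lipoprotein receptor, with 4.07 ± 0.809 against 0.797 ± 0.228 CPM (log2 fold change 2.38), and *Slc6a9*, a glycine transporter, with 11.3 ± 1.65 against 2.72 ± 0.384 CPM (SD, n = 2, log2 fold change 2.07). In *Tsc2* KO cells 21 were called higher, with a median of 0.42, and *Slc38a2* and *Wars* were called lower, by -0.57 and -0.77. The cationic amino acid transporter *Slc7a1* stood at 143.6 ± 1.45 CPM there against 61.1 ± 8.34 CPM in wild-type (SD, n = 2, edgeR adjusted p = 2.6e-06). Without *Tsc2* KO library 2, 18 were called higher and 2 lower. *Slc38a2*, a transporter of neutral amino acids, was the most different target between the KO lines, with 358.2 ± 9.49 CPM in *Tsc2* KO and 812.7 ± 28.1 CPM in *Nprl2* KO cells (SD, n = 2, edgeR adjusted p = 1.0e-07), and 13 targets were lower and 3 higher in *Tsc2* KO than in *Nprl2* KO cells. Over the days the list followed the members, with 25 targets lower and 4 higher from day 0 to day 1 (median -0.52) and 22 higher and 7 lower from day 1 to day 2 (median 0.45). From day 2 to day 3 only 2 were called higher and 6 lower (median -0.09). Over all genes tested, 2.78% were called higher in *Nprl2* KO and 14.9% in *Tsc2* KO cells, and 16.6% lower in *Tsc2* KO than in *Nprl2* KO cells. From day 0 to day 1 the share called lower was 30.8%, and from day 1 to day 2 the share called higher was 32.5%. From day 2 to day 3, 15.9% were called higher and 15.6% lower. The medians over all genes tested lay between -0.01 and 0.02 in these comparisons. *Slc38a2* moved against the list at both steps, by 1.82 to day 1 and -1.30 to day 2 on the log2 scale.

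**Figure D4:**
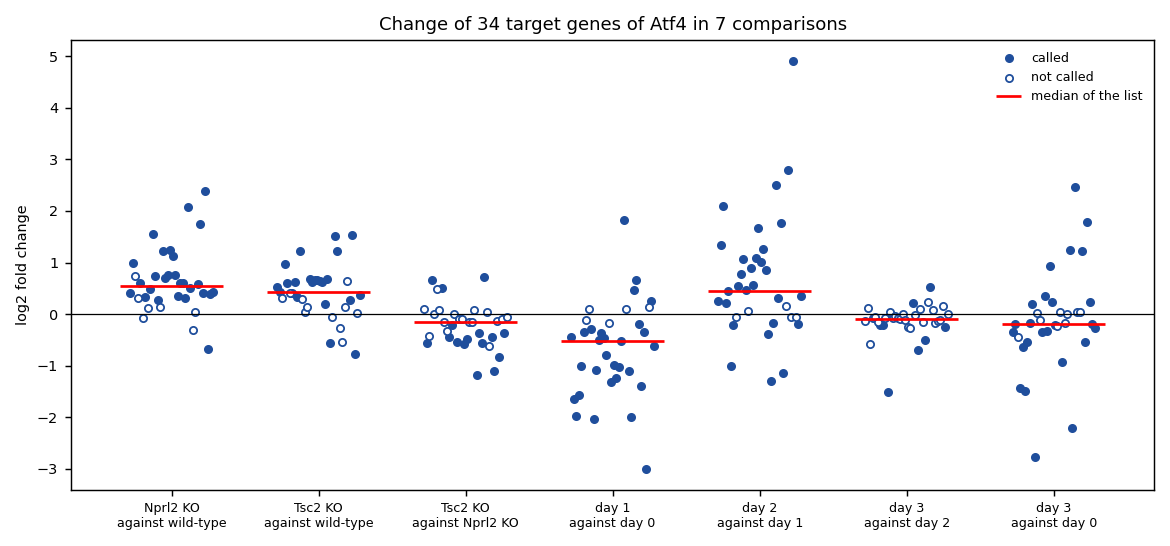
Log2 fold change (y axis) of the 34 tested target genes of Atf4 in each of the 7 comparisons (x axis). Filled points were called, open points were not, and the red line is the median of the list. The median is 0.55 in *Nprl2* KO and 0.42 in *Tsc2* KO cells, -0.52 from day 0 to day 1 and 0.45 from day 1 to day 2.

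Genes that act upstream of Atf4 or in other stress pathways were counted in the same way. The shares over all genes tested stand beside each list above and below. They were 6.43% called in *Nprl2* KO, 29.1% in *Tsc2* KO and 34.2% in *Tsc2* KO against *Nprl2* KO cells. For the steps to day 1, day 2 and day 3 they were 60.9%, 62.1% and 31.5%. The 14 genes of eIF2 signalling were those of the eIF2α kinases and phosphatase subunits, eIF2α and eIF2B, with *Gcn1* and *Impact*. Of these, edgeR called 0 in *Nprl2* KO cells, with 4 higher at an unadjusted p under 0.05. DESeq2 called 0, and other alternatives called up to 4 (2 for the ER list named next). In *Tsc2* KO cells 4 were called higher and 1, *Gcn1*, lower. The largest change was that of *Ppp1r15b*, a phosphatase subunit that reverses eIF2α phosphorylation, with 255.8 ± 17.6 against 163.4 ± 2.22 CPM (SD, n = 2). The log2 fold change of *Ppp1r15b* was 0.65, and in that comparison the 747 genes tested on chromosome 1 had a median of 0.37. The part of chromosome position in the change of *Ppp1r15b* was not tested. List genes on chromosome 1 were not set apart in the *Tsc2* KO counts of any list. Of 21 ER chaperones and targets of Xbp1 and Atf6, genes of the unfolded protein response, edgeR called 0 in *Nprl2* KO cells, with 3 higher at an unadjusted p under 0.05 and 0 called by DESeq2. In *Tsc2* KO cells edgeR called 4 higher and 2 lower, a share close to the 29.1% of all genes. From day 0 to day 1, when 8 of the 10 members fell, 12 of these 21 genes rose and 2 fell, with a median of 0.27. *Hspa5*, the main chaperone of the ER, went from 366.3 ± 23.6 to 643 ± 23.1 CPM (SD, n = 3, edgeR adjusted p = 1.6e-09), and *Herpud1*, which serves ER-associated degradation, fell by 1.23 on the log2 scale.

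*Sesn2* and *Ddit4* are also known as genes that respond to p53 and, for *Ddit4*, to low oxygen. Of 14 other p53 targets tested, 6 rose in *Nprl2* KO cells (median 0.46), among them *Perp* with 36.5 ± 3.5 against 15.9 ± 3.1 CPM and *Mdm2*, the negative regulator of p53, with 296.4 ± 31 against 169.8 ± 22.6 CPM (SD, n = 2). Leaving out 1 library at a time, 2 to 6 were called higher, and 5 to 12 under the alternatives that keep all libraries. In *Tsc2* KO cells 4 were called higher and 5 lower, which became 1 higher and 4 lower without *Tsc2* KO library 2. In *Tsc2* KO against *Nprl2* KO cells 9 were called lower by edgeR and 0 higher (0 higher also at an unadjusted p under 0.05 and by DESeq2). These directions stand beside those of *Sesn2* and *Ddit4*, and their relation was not tested. From day 2 to day 3, when *Sesn2* fell, 10 of the 14 were called lower. Of 12 hypoxia targets, 1 (*Vegfa*) was called in *Nprl2* KO cells, and from day 1 to day 2, when *Ddit4* rose, 8 were called higher and 2 lower with a median of 1.25. *Slc2a1*, the glucose transporter Glut1, went from 261.8 ± 34.9 to 1010 ± 14.6 CPM in that step (SD, n = 3, edgeR adjusted p = 7.6e-08). Among the immediate-early genes, 7 of 12 were called higher from day 1 to day 2 (median 1.09) and 5 from day 2 to day 3 (median 0.84). Over all genes tested 32.5% and 15.9% were called higher in these steps, at which *Atf3* also rose.

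Of 6 close relatives (paralogs) of the members tested, 1 was called in *Nprl2* KO cells, *Ddit4l*, a homologue of *Ddit4*, with 19.9 ± 2.18 against 9.3 ± 1.59 CPM (SD, n = 2, edgeR adjusted p = 0.00867). In *Tsc2* KO cells *Sesn1* was higher, at 40.7 ± 1.32 against 18.9 ± 4 CPM, and *Sesn3* and *Trib2* were lower, at 16.1 ± 2.03 against 30.3 ± 2.03 CPM and 2.34 ± 0.542 against 7.75 ± 1.63 CPM (SD, n = 2). Of the sestrin genes, *Sesn1* was thus called higher there, *Sesn3* lower, and *Sesn2* was not called. From day 0 to day 1, when *Trib3* fell, *Trib1* and *Trib2* rose by 1.36 and 2.14 on the log2 scale. Of 16 other bZIP factors tested in sorted cells, 1 was called in *Nprl2* KO cells, *Creb1*, which was lower by -0.38. In *Tsc2* KO cells 2 were called higher and 3 lower, a share close to the 29.1% of all genes. The bZIP gene *Jdp2* had the steepest course over the days, with 10.4 ± 0.945 CPM on day 0, 0.311 ± 0.139 CPM on day 1 and 4.76 ± 0.599 CPM on day 2 (SD, n = 3).

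Some members had like courses over the 18 libraries, described by Pearson's r of log2(CPM + 1) after each set had been centred. *Atf4* was most like *Trib3* (r = 0.87) and *Nupr1* (r = 0.82) and least like *Sesn2* (r = 0.01) and *Ddit4* (r = 0.18). *Cebpb*, *Chac1*, *Ddit4* and *Atf3* resembled each other, with r between 0.81 and 0.91. *Nupr1* and *Trib3* had r = 0.89. No separate groups were formed, since *Trib3* and *Chac1* had r = 0.86. *Ddit3* had r = 0.89 with *Chac1*, 0.84 with *Cebpb* and 0.80 with both *Atf3* and *Trib3*. These values share libraries and groups and are largely set by the differences between days, so they carry no p. Among the 13404 genes tested in both sets, the non-members most like *Atf4* were *Nars* (r = 0.93), *Yars* (r = 0.89) and *Kansl3* (r = 0.88), of which *Nars* and *Yars* encode aminoacyl-tRNA synthetases. *Nars* (r = 0.93) and the synthetase gene *Cars* (r = 0.95) were also among the 3 most like *Nupr1*, with *Zfp385c* (r = 0.95). The genes most like *Ddit3* were *Sfmbt1* (r = 0.94), *Rec8* (r = 0.94) and *Chadl* (r = 0.93), and those most like *Ddit4* were *Serpine2* (r = 0.97), *D5Ertd579e* (r = 0.97) and *Wipf3* (r = 0.96).

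The promoter matches can be set beside these values. The 4 genes with a CARE match had day spans of 4.07-fold (*Trib3*), 13.2-fold (*Chac1*), 18.2-fold (*Atf3*) and 28-fold (*Nupr1*), and log2 fold changes in *Nprl2* KO cells of 1.48 to 2.64. The 6 without one had day spans of 1.35-fold (*Sesn2*) to 6.39-fold (*Ddit4*), and log2 fold changes in *Nprl2* KO cells of 0.56 (*Sesn2*) to 1.74 (*Ddit4*). The ranges overlap, and with 10 chosen genes this is a description only.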

How the data were processed

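RNA-seq of 18 mouse mESC libraries was used. The authors quantified reads with kallisto 0.42.1 (mm10, per the labels) and deposited 1 table per library with an estimated count and a TPM for each of 34079 RefSeq transcripts, and 1 table of gene TPM. The authors' DESeq2 tables, which hold fold changes and p-values for each KO line, were not used. Transcripts were assigned to genes with RefSeq GRCm38.p6 (33713) or GENCODE M21 (192), and 174 were left out. Estimated counts were summed for 24296 genes and rounded. The 6 sorted and 12 time-course libraries were fitted separately with edgeR 4.0.16 (R 4.3.3, filterByExpr, TMM, robust quasi-likelihood, Benjamini-Hochberg adjustment over all 13725 or 14382 genes tested, threshold 0.05). The SE was the log2 fold change divided by the root of F. The scripts were checked on simulated counts.

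The members, gene lists and tests were chosen with earlier results of these data known. Named beside the members are at most 4 called genes per list and comparison with the largest log2 fold change, and the 3 genes most correlated with *Atf4*, *Ddit3*, *Nupr1* and *Ddit4*. *Perp*, *Mdm2*, *Trib1*, *Slc2a1* and others needed to complete a count were added after their values were seen. Alternatives were DESeq2 1.42.0, upper-quartile scaling, no filter, at least 10 counts in every library, a replicate block, only the groups compared, limma 3.58.1 on log2(TPM + 1), and each library left out. How the time-course libraries were prepared is not given in the sources used here, and whether kallisto used strand is not given either. Counting error alone sets the stated floor of 3 counts.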

Additional observations from a re-analysis of the deposited data

How the results depend on the processing

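The number of members called stayed within 1.5 times of the main count under all alternatives that keep every library: 7 to 9 in *Nprl2* KO, 6 to 7 in *Tsc2* KO and 4 to 5 in *Tsc2* KO against *Nprl2* KO cells, 8 from day 0 to day 1, 8 to 9 from day 1 to day 2, 4 to 5 from day 2 to day 3 and 8 to 9 from day 0 to day 3. *Atf3* was dropped by the filter of at least 10 counts in sorted cells, and DESeq2 gave it no adjusted p in *Nprl2* KO cells. Leaving out 1 library at a time gave 6 to 8, 6 to 7, 2 to 4, 8, 8 to 9, 4, and 8 to 10 members in the same order, with 2 reached without *Nprl2* KO library 2 and without *Tsc2* KO library 1. A group left with 1 library was assumed to vary like the others. Of 1147 member values under an alternative, 1113 kept their direction and their side of the threshold (the DESeq2 value of *Atf3* among them by direction only), 14 lost a call, 9 gained one and 11 changed sign.

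The values that changed sign were small and not called in the main fit; the cause was not tested. Leaving out 1 library gave, against wild-type in *Tsc2* KO cells, -0.23 to 0.02 for *Sesn2* and -0.46 to 0.04 for *Cebpb*, from day 0 to day 1 -0.07 to 0.02 for *Sesn2* and -0.34 to 0.36 for *Ddit4*, and from day 2 to day 3 -0.08 to 0.20 for *Ddit4*. With limma, *Ddit4* was at 0.01 from day 0 to day 1 and *Sesn2* at 0.06 from day 1 to day 2, where upper-quartile scaling gave *Sesn2* 0.02. In that step the median of all genes was 0.022 in the main fit, 0.101 with upper-quartile scaling and 0.111 with limma. *Ddit3* gained a call from day 0 to day 3 without day 0 library 2 (0.57, edgeR adjusted p = 0.0166), *Atf5* from day 1 to day 2 with only those days fitted (edgeR adjusted p = 0.0255), without day 0 library 2 (edgeR adjusted p = 0.0418) and without day 0 library 3 (edgeR adjusted p = 0.0423), and *Atf4* from day 2 to day 3 with limma (0.21, adjusted p = 0.0391).

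Libraries of the same number deviated together with a correlation of 0.09 to 0.16 in sorted cells and of -0.11 to 0.13 in the time course. Libraries of unlike number had -0.20 to 0.22 in the time course. With 2 sorted libraries per group, the values of unlike numbers there, -0.16 to -0.09, only mirror those of like numbers. Whether the numbers pair the sorted samples cannot be told from these values, and the main fits used no pairing. A replicate block gave 9 members in *Nprl2* KO cells (*Cebpb* added), 5 between the KO lines (*Trib3* added), and the main counts in the other comparisons, and the same genes were added with no filter on low counts. The block raised the calls among all genes from 3996 to 5255 in *Tsc2* KO cells and from 4692 to 5846 between the KO lines. Over all genes it raised the calls in *Nprl2* KO cells from 883 to 2072, no filter raised them to 1667, and leaving out 1 library gave 339 to 783. In *Tsc2* KO cells 3996 genes became 2225 without *Tsc2* KO library 2 and 2661 without wild-type library 1, between the KO lines 4692 became 2974 without *Tsc2* KO library 2, and from day 2 to day 3 4525 became 2969 without day 2 library 2. The counts of list genes under the alternatives were added after seeing the data. With 2 sorted libraries per group and 8 to 47 counts of *Atf3* in sorted libraries, small changes of the scarce genes were not detectable.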
